A study of Pinus pinaster with 21 samples.

Results

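Among the small RNAs counted in the roots of maritime pine (Pinus pinaster), 228 of 32711 identifiers were abundant in nearly all libraries but stood at 0 in 1 or 2 of them. They were chosen from 17 libraries as the identifiers with a count above 0 in exactly 15 or 16 libraries and a median of those counts of at least 500. Of the 228, 119 were missing from 1 library and 109 from 2. A count above 0 is called a listing here, and a 0 is read as a missing value and not as a measured absence. Which libraries list a small RNA, and its overall median, are thus what chose it and are given as a description without a test.

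The seedlings were of the Segura-Alcaraz provenance, 1 month old, and spent 3 days on a nutrient solution without a nitrogen source before the treatment, so that all groups share this nitrogen-free period. The 7 groups were roots before irrigation, roots 2 h after irrigation with 80 mL of water or the same volume of ammonium chloride (NH4Cl) at 0.1 mM or 3 mM, and roots 24 h after each of these. Each library came from the pooled roots of 10 seedlings, and the replicate number marks 1 of 3 independent runs of the experiment. The 17 libraries hold 1 library before irrigation (replicate 2), 3 of each treatment at 2 h, 3 of water at 24 h, 2 of 0.1 mM at 24 h (replicates 2 and 3) and 2 of 3 mM at 24 h (replicates 1 and 3). The other 4 libraries were not used by the choice and are described apart.

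Plant small RNAs are short regulatory molecules that are loaded into Argonaute proteins. MicroRNAs guide the cutting or translational repression of messenger RNAs, many of them for transcription factors, and small interfering RNAs also direct DNA methylation. Ammonium is a nitrogen source that conifer roots take up readily, and microRNAs take part in root growth and nutrient responses of plants. The identifiers in the count table are serial labels that are paired with no name, sequence or position, so no family, target or role can be given for any of them and no sequence is shown. For the same reason the labelled tissue could not be checked against marker small RNAs.

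Total counts of the 17 libraries ranged from 5947601 to 9603954, and the 228 small RNAs held 10.7% to 14.5% of them. The median listed count of a member ranged from 500 to 96715, with quartiles of 843 and 2643 around a middle value of 1289. The median was at least 10000 for 22 members, 1000 to under 10000 for 119 and under 1000 for 87. Just inside the limit, MIR_5120 had a median of 500 and MIR_1331 of 502. Just outside it, MIR_5062 had 499.5 and MIR_1391 had 482.5. For comparison, 416 identifiers were listed by all 17 libraries, 316 of them with a median of at least 500, and 215 identifiers missing from 1 or 2 libraries had a lower median.

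The choice of members by a median of at least 500 fixes that their gaps fall where the usual level is high. Within the 17 libraries, the smallest count of any member where it was listed was 31, while the table of all 21 libraries holds counts as low as 5. Of the 3876 values of the 228 members, 337 (8.69%) were 0. At the scale of the library that lacked it, the member's own median level amounted to between 391 and 87160 counts, with a median of 1243, and it was at least 10000 for 36 of the 337. MIR_10, the most abundant member, is the extreme case, with 0 in water at 2 h replicate 1 where its median level would amount to 87160 counts.

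All 17 libraries lacked some of the members. The number lacking was 31 and 23 in the 3 mM libraries at 24 h, 14 and 9 in the 0.1 mM libraries at 24 h, and 21, 23 and 24 in the water libraries at 24 h. At 2 h it was 20, 17 and 15 with 3 mM, 22, 26 and 19 with 0.1 mM, and 24, 12 and 26 with water. It was 11 in the library before irrigation. Libraries of 1 group differed widely, from 12 to 26 in water at 2 h. By experiment, the average was 23.6 in 5 libraries of experiment 1, 17.2 in 6 of experiment 2 and 19.3 in 6 of experiment 3. As shares of the members, the libraries at 24 h lacked 13.6% and 10.09% with 3 mM, 6.14% and 3.95% with 0.1 mM and 9.21%, 10.09% and 10.53% with water. Of the 215 less abundant identifiers missing from 1 or 2 libraries, they lacked 11.16% and 8.84% with 3 mM, 8.37% in each with 0.1 mM and 10.7%, 9.3% and 9.3% with water. These shares were not tested. Over all identifiers, the libraries at 24 h listed 4150 and 4358 with 3 mM and 5408 and 4680 with 0.1 mM. The 3 mM libraries at 24 h are of experiments 1 and 3 and the 0.1 mM ones of experiments 2 and 3, so dose and experiment are partly mixed.

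**Figure D1:**
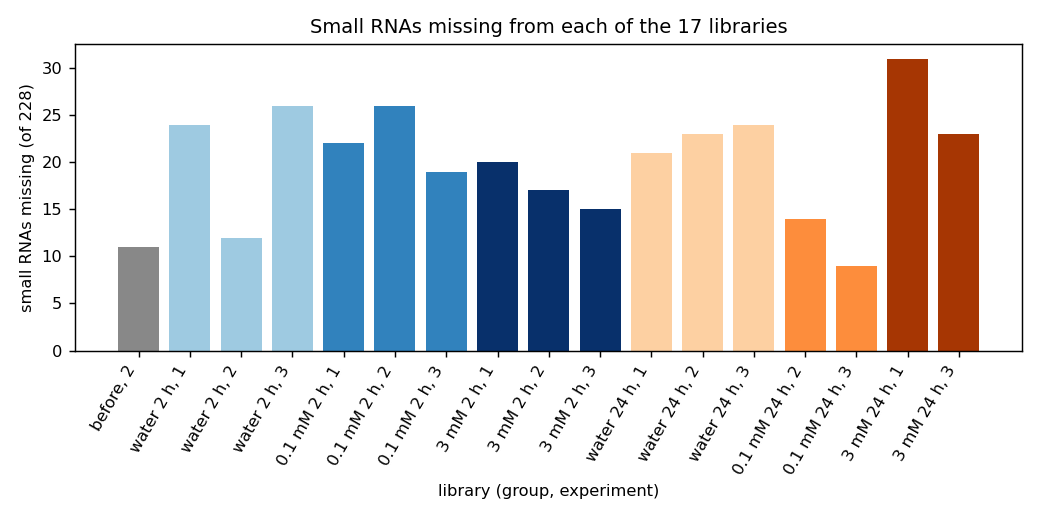
Number of the 228 small RNAs that each of the 17 libraries lacks (bars, by group and experiment, coloured by group, with no error as each bar is a count in 1 library). The bars range from 9 to 31, with the lowest for 0.1 mM at 24 h replicate 3 and the highest for 3 mM at 24 h replicate 1.

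The gaps of a member seldom fell within 1 group. Of the 109 small RNAs missing from 2 libraries, 12 (11.0%) were missing from 2 libraries of the same group, where 14 of the 136 possible pairs of libraries (10.3%) share a group. For 38 (34.9%) the libraries shared an experiment, as 40 of the possible pairs (29.4%) do. The 109 were spread over 80 different pairs, and no pair was shared by more than 3 of them. MIR_53 was the only member missing from both libraries of a group with 2, namely 0.1 mM at 24 h. Its scaled counts elsewhere were 21600 before irrigation, 5190, 16110 and 22930 after water, 9528, 15460 and 16750 after 0.1 mM and 6003, 15450 and 15490 after 3 mM at 2 h, with 21480, 20570 and 16150 after water and 18610 and 10760 after 3 mM at 24 h. A scaled count is the deposited count divided by a factor for its library, taken from the identifiers that all 17 libraries list. Another 11 members were missing from the only library before irrigation and so have no baseline value, the most abundant of them being MIR_65, MIR_374 and MIR_4801. MIR_4801 otherwise stood between 1603 and 2051 in all 16 libraries that list it.

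Where a member was listed, its level mostly lay within 1 log2 unit of its own median over those libraries. Among 3539 values from libraries that list the member, 96.7% differed by less than 1 log2 unit from its median, and the median distance was 0.152 log2 units. This share was not taken for other identifiers. Only 15 values in 11 members lay more than 2 log2 units away, 14 of them below and 1 above. The far value above was MIR_4045 in 3 mM at 2 h replicate 1, with 25682 counts. The lowest was MIR_1086 in water at 2 h replicate 1, with 63 counts, at -6.58 log2 units from its median.

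The 10 most abundant members ranged in median from 92040 scaled counts for MIR_10 to 20620 for MIR_374. MIR_10 stood at 84700 before irrigation, at 110600 and 77380 after water, at 170500, 47880 and 36140 after 0.1 mM and at 189200, 86350 and 103100 after 3 mM at 2 h. At 24 h it stood at 173000, 63820 and 83210 after water, at 104000 and 126800 after 0.1 mM and at 80720 and 97730 after 3 mM. The groups of MIR_10 overlap. The highest library of water at 24 h and of both ammonium doses at 2 h was that of experiment 1. After 3 mM at 24 h, the library of experiment 1 (80720) stood below that of experiment 3 (97730).

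MIR_36 followed with a median of 60480 and was the second most abundant. It had 132900, 45100 and 80430 after water, 114600, 45480 and 75280 after 0.1 mM and 160700, 51160 and 57380 after 3 mM at 2 h. At 24 h it had 104400, 36180 and 46280 after water, 33130 after 0.1 mM and 128100 after 3 mM, the other library of each ammonium group lacking it. MIR_88 (median 54450), MIR_29 (44200), MIR_110 (34310), MIR_65 (27710), MIR_60 (24590) and MIR_50 (22440) came between MIR_36 and MIR_374, together with MIR_4572.

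MIR_4572 was the steadiest of the 10. Its 15 scaled counts ranged from 39430 to 58820 around a median of 46930, so that its highest library stood 1.49-fold above its lowest. The highest library stood 9.83-fold above the lowest for MIR_110 and 11.2-fold for MIR_60, whose lowest value was 7774 in 0.1 mM at 2 h replicate 2 and whose highest was 87100 in 3 mM at 24 h replicate 1. MIR_110 was at 6152 in water at 2 h replicate 3 and at 7225 in 0.1 mM at 24 h replicate 2, and between 23530 and 60460 in the other 13 libraries that list it.

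**Figure D2:**
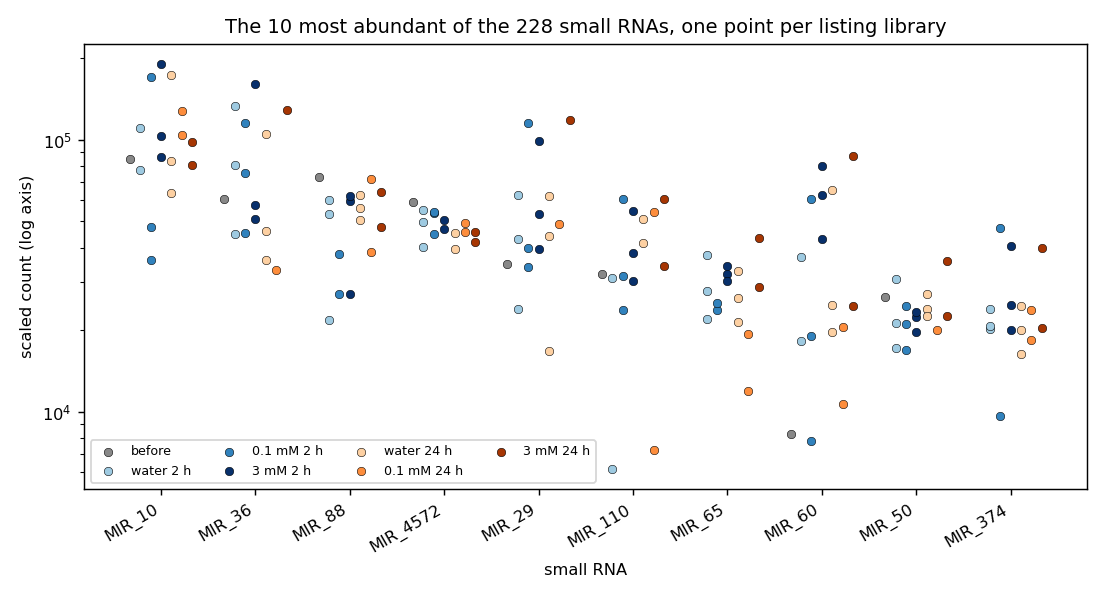
Scaled counts (log axis) of the 10 most abundant of the 228 small RNAs, with 1 point for each library that lists them and colours for the 7 groups. The points of MIR_4572 lie between 39430 and 58820, while those of MIR_60 run from 7774 to 87100, and the groups of MIR_10 overlap.

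Neighbours in the order of levels mostly overlapped. The 16 libraries of MIR_10 ran from 36140 to 189200 and the 15 of MIR_36 from 33130 to 160700, so the order of these medians does not separate them beyond their spread. The 15 libraries of MIR_65 (11850 to 43610) and the 16 of MIR_50 (16790 to 35650) overlapped in the same way. Counts are not adjusted for length, which the table does not give, so the order of levels is one of counts.

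The spread within groups, as the SD of log2 scaled counts pooled over groups, had a median of 0.291 over the 228 members and ranged from 0.07 to 2.10. It was 0.221 over the 316 identifiers with a median of at least 500 that all 17 libraries list. Over the 215 less abundant ones that 1 or 2 libraries lack it was 0.285. The 316 were not matched to the members in abundance and reach a median count of 940862 (MIR_828), beside 96715 for MIR_10. Among the members it was wider in the abundant ones, with a median of 0.679 over the 22 with a median count of at least 10000, 0.301 over the 119 in the middle and 0.239 over the 87 lowest. These values are descriptions of chosen lists and carry no test.

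The members with the widest spread had some libraries far below the rest. MIR_1086 (SD 2.10) stood between 4771 and 10550 in 14 libraries, but at 66.5 in water at 2 h replicate 1 and at 511 in 3 mM at 2 h replicate 1. MIR_4164 (SD 1.78) stood at 33.2 in water at 24 h replicate 1 and at 99.5 in 3 mM at 2 h replicate 1, against a median of 685.7 over all 15 libraries. MIR_1248 (SD 1.199) stood at 65.5 in water at 24 h replicate 2 and between 389.9 and 1293 in the others. MIR_91 (SD 1.10) ranged from 4086 to 49910, and MIR_110 had an SD of 1.04.

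The steadiest member, MIR_442 (SD 0.07), ran from 456 to 561 scaled counts over 15 libraries and all 7 groups. MIR_4991 ran from 496.5 to 696, MIR_4775 from 2590 to 3514, MIR_7611 from 749 to 965 and MIR_3819 from 808 to 1044. For MIR_442, the values were 559 before irrigation, 548 and 544 after water, 561, 523 and 520.2 after 0.1 mM and 506, 456 and 495 after 3 mM at 2 h. At 24 h they were 470.5 and 531 after water, 471 and 456 after 0.1 mM and 515 and 486 after 3 mM. It was missing from water at 2 h and at 24 h, in replicate 3 of each.

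Some members had a counterpart, an identifier that was listed by exactly the libraries that lacked the member and by no other of the 17. All 109 members missing from 2 libraries had at least 1 identifier with this complementary listing, among 3470 identifiers that exactly 2 of the 17 libraries list. With so many of these, a complementary listing alone does not link an identifier to a member. For 22 of the 109, in 28 pairs, the counts of the counterpart lay within 0.5 log2 units of the member's median level in both libraries. An identifier could match several members, as MIR_15505 did MIR_859 and MIR_5017. This window was chosen after the values were seen, and the share of such matches among unrelated identifiers was not taken. The identity of the sequences behind the labels was not tested.

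The clearest pair was MIR_4572 and MIR_831. MIR_4572 was missing from 3 mM at 2 h replicate 1 and from water at 24 h replicate 3, where its median level would amount to 38670 and 46880 counts. MIR_831 had 37279 and 48026 counts in these libraries and 0 in the other 15. In the 4 libraries not used by the choice, MIR_831 had 41666 counts before irrigation in replicate 1, where MIR_4572 was at 0, and MIR_4572 had 49264 counts in 3 mM at 24 h replicate 2, where MIR_831 was at 0. Both were at 0 in the remaining 2 libraries. That none of the 17 libraries lists both is fixed by the definition of a counterpart.

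**Figure D3:**
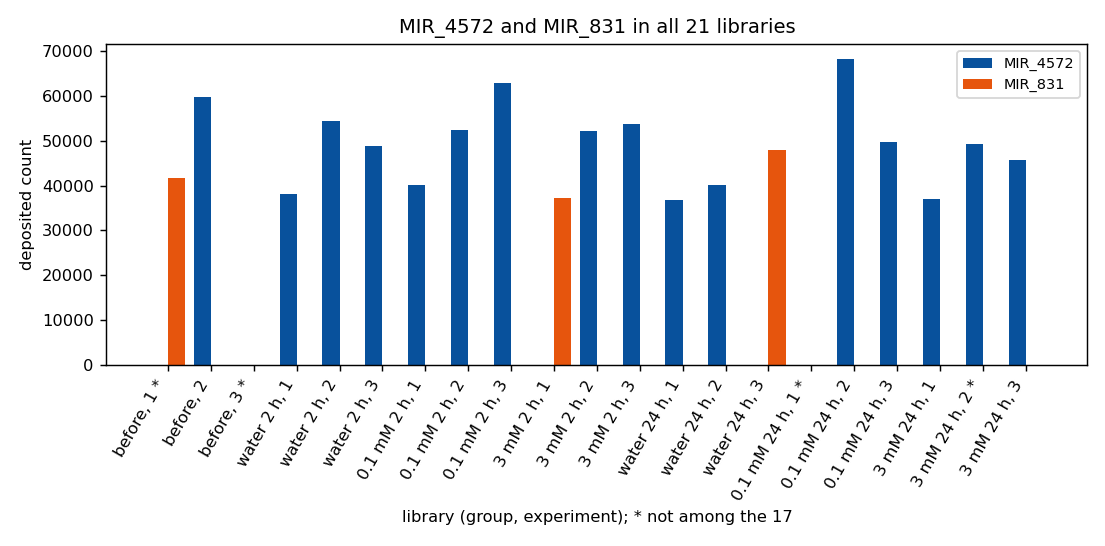
Deposited counts of MIR_4572 (blue) and MIR_831 (orange) in all 21 libraries, by group and experiment, with an asterisk on the 4 libraries not used by the choice. MIR_831 stands at 37279, 48026 and 41666 in 3 libraries without MIR_4572. No library shows both bars, which the definition of a counterpart fixes for the libraries without an asterisk.

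Other pairs were less abundant. MIR_4758 was missing from replicate 1 of water at 24 h and replicate 3 of 0.1 mM at 2 h, where its level would amount to 6932 and 8641 counts, and MIR_14063 had 9373 and 8605 there. MIR_1120 was missing from replicate 2 of 3 mM at 2 h and replicate 3 of 0.1 mM at 24 h, with expected levels of 2719 and 2655, and MIR_19107 had 2616 and 3334. MIR_7611 was missing from 0.1 mM libraries, replicate 1 at 2 h and replicate 2 at 24 h, with expected levels of 741 and 1144, and MIR_4936 had 728 and 1029. In the 4 libraries not used by the choice, the counterpart was at 0 throughout for 22 of the 28 pairs, which thus could not be seen together there. Of the 6 pairs whose counterpart was listed there, 2 were listed together with the member. Both of these belonged to MIR_432, which had 361 counts before irrigation in replicate 1, beside 343 of MIR_1427 and 324 of MIR_1441.

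The 4 libraries not used by the choice give a measure of the members that the choice did not touch. Their totals were 6982894 and 3332237 before irrigation (replicates 1 and 3), 3086103 in 0.1 mM at 24 h replicate 1 and 1180505 in 3 mM at 24 h replicate 2. They listed 116 (50.9%), 58 (25.4%), 44 (19.3%) and 35 (15.4%) of the 228 members in that order. Of the 416 identifiers listed by all 17 libraries they listed 48.8%, 26.9%, 17.3% and 16.8%, which was not tested against the members' shares. No member was listed by all 4, 19 were listed by 3, 50 by 2 and 96 by 1, and 63 by none.

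Most of the members that these libraries did list stood within 1 log2 unit of their usual level. The factor of each of these libraries was the median ratio of its counts of the identifiers that all 17 libraries list. Medians near 0 are thus relative to those identifiers, which the scaling itself centres. After scaling on shared identifiers, the median difference from the member's median over the 17 libraries was -0.05 and 0.049 log2 units before irrigation, -0.063 in 0.1 mM at 24 h replicate 1 and -0.02 in 3 mM at 24 h replicate 2. The share of listed members within 1 log2 unit was 94.0%, 91.4%, 95.5% and 88.6%. For the identifiers that all 17 libraries list, this share was 95.6%, 94.6%, 93.1% and 94.3%. The shares were not tested against each other. Relative to the library totals the same medians were -0.082, 0.99, 1.06 and 2.88, since the totals of the last 3 are low while the listed counts are not.

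A few members stood far below their usual level in these libraries. MIR_65 had 53 counts and MIR_36 had 120 counts in 3 mM at 24 h replicate 2, both more than 9 log2 units below their median (-9.23 and -9.18). MIR_752 had 53 counts before irrigation in replicate 3, at -8.05 log2 units, and MIR_1086 had 69 counts there, at -6.35. MIR_4629 had 13 counts in 0.1 mM at 24 h replicate 1, at -6.56. The values farthest above the usual level were MIR_865 at 1.58 log2 units (2176 counts, before irrigation replicate 3) and MIR_60 at 1.44 (59508 counts, before irrigation replicate 1).

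Levels were then compared between groups in the 17 libraries, to ask which members respond to ammonium and when. Each small RNA was fitted with the quasi-likelihood F test of edgeR on the libraries that list it, two-sided, with p-values adjusted by Benjamini-Hochberg over all 857 to 859 identifiers that at least 15 libraries list (825 against the baseline). This fit had no block for the experiment, although equal replicate numbers share a run. None of the 15 comparisons had a member with an adjusted p under 0.05 in it. With the experiment as a block, MIR_1120 passed in some of them, as given below. Differences are log2 values with the first-named group on top, SE is the standard error and intervals are 95% intervals. In pooled root tissue, fewer cells of a type and less of a small RNA per cell cannot be told apart.

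At 2 h after 3 mM ammonium, 0 of 228 members passed the test against water, as did 0% of all 859 identifiers. With 3 mM, 136 members had a higher estimate and 92 a lower one, with a median difference of 0.047 log2 units beside 0.019 over all identifiers. An unadjusted p under 0.05 was reached by 9 members (3.95%) and by 4.54% of all identifiers, and DESeq2 and limma also called 0 members. The interval lay within 1 log2 unit of 0 for 177 of the 228. The smallest p belonged to MIR_1114, with 4331, 3831 and 3502 scaled counts after 3 mM and 3199, 2555 and 3148 after water. These libraries do not overlap, and the difference was 0.39 log2 units (SE 0.12, interval 0.12 to 0.66, edgeR adjusted p = 0.889). The largest estimate was that of MIR_808, with 42330, 21020 and 21960 after 3 mM and 6152, 17810 and 8171 after water, which was 1.41 log2 units (SE 0.52, interval 0.29 to 2.53, edgeR adjusted p = 0.889).

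At 2 h after 0.1 mM ammonium, 0 of 228 members passed against water (0% of all 859). The members were evenly placed, with 115 higher and 113 lower estimates and a median of 0.004 log2 units beside -0.002 over all identifiers. An unadjusted p under 0.05 was reached by 7 members (3.07%, beside 2.33% of all), and DESeq2 and limma called 0. MIR_7507 had the smallest p, with 1681 and 1837 scaled counts after 0.1 mM, where replicate 1 lacked it, and 2714, 2125 and 2410 after water (difference -0.46, SE 0.14, edgeR adjusted p = 0.990). MIR_110 had the largest estimate at 1.05 (interval -0.68 to 2.78), with 60250, 23530 and 31620 after 0.1 mM and 31040 and 6152 after water.

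Between the doses at 2 h, 0 of 228 members passed (0% of all 859), with a median difference of 0.014 log2 units beside 0.00 over all identifiers. An unadjusted p under 0.05 was reached by 8 members (3.51%, beside 3.26% of all), and limma called 0. MIR_1114 again had the smallest p. Its 3 libraries after 3 mM, given above, lie over those after 0.1 mM, at 2591 and 2661 with replicate 1 missing. The difference was 0.57 (SE 0.14, interval 0.26 to 0.87, edgeR adjusted p = 0.742), and DESeq2 called it as the only member, with an adjusted p of 0.0239. MIR_60 had the largest estimate at 1.09 (interval -0.46 to 2.64), with 43050, 62300 and 80100 after 3 mM and 60360, 7774 and 18940 after 0.1 mM.

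At 24 h after 3 mM ammonium, 0 of 228 members passed against water (0% of all 859). Here 102 estimates were higher and 126 lower with 3 mM, with a median of -0.031 log2 units beside -0.009 over all identifiers. An unadjusted p under 0.05 was reached by 9 members (3.95%, beside 5.01% of all), DESeq2 and limma called 0, and 151 intervals lay within 1 log2 unit of 0. MIR_4943 had the smallest p, with 601 scaled counts in the 1 library after 3 mM that lists it and 952, 955.5 and 757 after water (difference -0.56, SE 0.17, edgeR adjusted p = 0.823). MIR_91 had the largest estimate at 1.75 (interval -0.33 to 3.83), with 49760 and 41640 after 3 mM and 18950 and 8185 after water.

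At 24 h after 0.1 mM ammonium, 227 members could be compared with water and 0 passed (0% of all 857). Of these, 97 had a higher and 130 a lower estimate with 0.1 mM, with a median of -0.035 beside -0.02 over all identifiers, and 7 had an unadjusted p under 0.05 (3.08%, beside 3.03% of all). MIR_1120 stood apart, with 170.1 scaled counts in the 1 library after 0.1 mM that lists it, replicate 2, and 2600, 1532 and 2601 after water. The difference was -3.72 (SE 0.50, interval -4.82 to -2.62, edgeR adjusted p = 0.0790). It rests on 235 counts in 1 library, which is assumed to vary like the other groups, and without that library the group has no value. The other library of the group lacks MIR_1120 and holds 3334 counts of MIR_19107, as described above. Whether these labels stand for the same RNA was not tested.

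MIR_1120 passed the test under several alternatives, each of which has the same single library at 0.1 mM and 24 h and takes its spread from the other groups. With the experiment as a replicate block, the difference from water was -3.15 (edgeR adjusted p = 0.0189), that between 24 h and 2 h at 0.1 mM was -3.14 (adjusted p = 0.0194), that between 24 h and 2 h over all treatments was -1.18 (adjusted p = 0.0187), and that of the interaction of 0.1 mM with time was -3.24 (adjusted p = 0.0359). Against water it also passed in DESeq2 (adjusted p = 5.07e-12), in limma (0.0110) and with edgeR on library totals (0.0051), and on leaving out 3 mM at 24 h replicate 1 (0.0413) or replicate 3 (0.0400), which share the estimate of the spread. Other alternatives did not call it. It passed in no comparison with RLE factors, with only identifiers of a median of at least 500, with only the groups compared or with zeros kept as counts. On leaving out any other library, MIR_1120 did not pass against water. At 2 h, MIR_1120 stood at 2146, 1404 and 2710 after water, at 2531, 1464 and 2734 after 0.1 mM and at 2428 and 2667 after 3 mM. The lowest listed value of water and of 0.1 mM at 2 h, and of water at 24 h, was thus that of experiment 2, from which the low value also came, while the library before irrigation, also of experiment 2, had 2567.

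In the same comparison MIR_4756 had the next smallest p. It had 5133 and 7597 scaled counts after 0.1 mM and 2371, 2786 and 3487 after water, groups that do not overlap. The difference was 1.14 (SE 0.27, interval 0.55 to 1.74, edgeR adjusted p = 0.518), and DESeq2 called it with an adjusted p of 0.00978. MIR_1120 and MIR_4756 were the 2 members DESeq2 called here. MIR_4164 had the next largest estimate after MIR_1120, at 1.31 (interval -1.23 to 3.86).

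Between the doses at 24 h, 0 of 227 members passed (0% of all 857), with a median of -0.001 beside 0.0 over all identifiers and 8 members with an unadjusted p under 0.05 (3.52%, beside 3.62% of all). The libraries of 3 mM came from experiments 1 and 3 and those of 0.1 mM from experiments 2 and 3, so dose and experiment are partly mixed. MIR_1120 had 2446 and 1155 scaled counts after 3 mM and 170.1 after 0.1 mM, a difference of 3.40 (SE 0.53, edgeR adjusted p = 0.169). It passed with an adjusted p of 0.0174 without 3 mM at 24 h replicate 3. MIR_65 had 43610 and 28750 after 3 mM and 19340 and 11850 after 0.1 mM (difference 1.21, SE 0.31, edgeR adjusted p = 0.717, DESeq2 adjusted p = 0.0362). The third library of 3 mM at 24 h, not used in this fit, had 53 counts of MIR_65. MIR_93 had 4490 in the 1 library after 3 mM that lists it and 14770 and 23030 after 0.1 mM (difference -2.07, SE 0.53, edgeR adjusted p = 0.717, DESeq2 adjusted p = 0.0272). These 3 were all that DESeq2 called, and limma called 0.

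**Figure D4:**
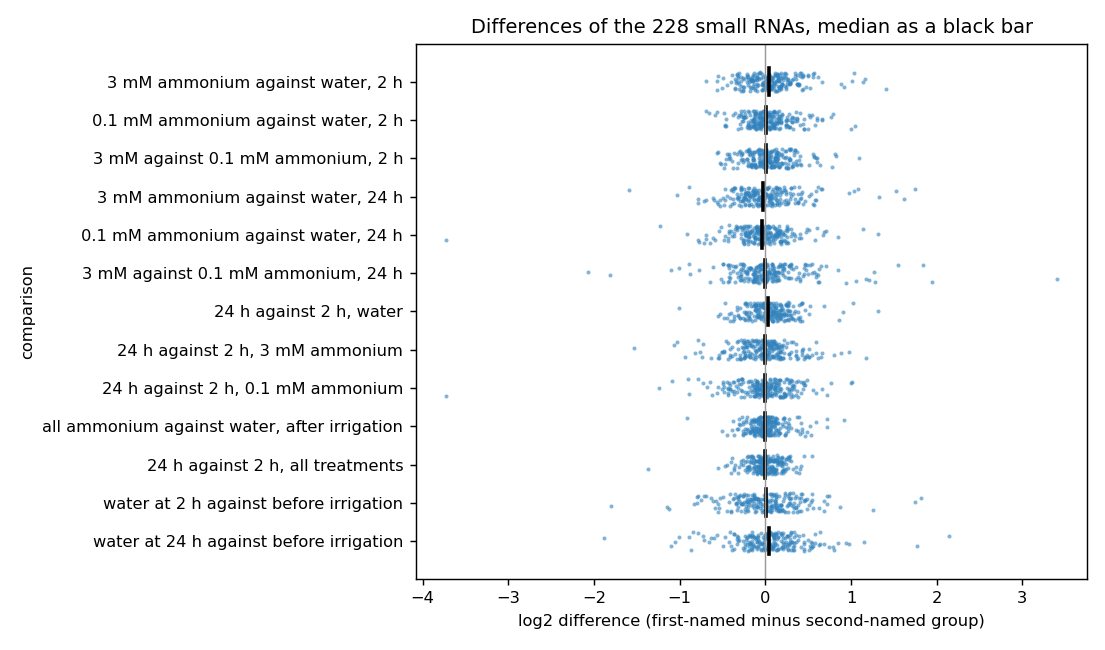
Log2 differences of the members in the 13 comparisons of groups (points, 1 for each small RNA, shifted at random up and down), with the first-named group on top and the median as a black bar. The medians lie between -0.035 and 0.047, and the points at -3.72 and 3.40 are MIR_1120.

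Between 24 h and 2 h after water, 0 of 228 members passed (0% of all 859), with a median of 0.034 beside 0.023 over all identifiers and 7 members with an unadjusted p under 0.05 (3.07%, beside 3.96% of all). DESeq2 and limma called 0. MIR_4650 had the smallest p, with 1014 and 1258 scaled counts at 24 h and 509, 965 and 640.1 at 2 h, so that the groups do not overlap (difference 0.69, SE 0.23, edgeR adjusted p = 0.816). MIR_110 had the largest estimate, 1.31 (interval -0.58 to 3.21), with 50890 and 41530 at 24 h and 31040 and 6152 at 2 h.

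Between 24 h and 2 h after 3 mM ammonium, 0 of 228 members passed (0% of all 859), with a median of -0.007 beside 0.003 over all identifiers and 11 members with an unadjusted p under 0.05 (4.82%, beside 3.73% of all). DESeq2 and limma called 0. MIR_1111 had 3018 and 3112 scaled counts at 24 h and 5332, 4625 and 5591 at 2 h (difference -0.76, SE 0.20, interval -1.21 to -0.31, edgeR adjusted p = 0.998). MIR_93 had the largest estimate, -1.54 (interval -2.65 to -0.43), with 4490 at 24 h and 9162, 11660 and 18290 at 2 h. MIR_1292 had 527 and 483 at 24 h and 1142 and 541 at 2 h, and passed only on leaving out the second of the 2 h values, replicate 3, at -1.18 (SE 0.17, edgeR adjusted p = 0.0250). The 2 h level then rests on 1 library that is assumed to vary like the other groups.

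Between 24 h and 2 h after 0.1 mM ammonium, 0 of 227 members passed (0% of all 857), with a median of -0.008 beside -0.011 over all identifiers and 7 members with an unadjusted p under 0.05 (3.08%, beside 4.55% of all). MIR_1120 had 170.1 scaled counts at 24 h and 2531, 1464 and 2734 at 2 h, a difference of -3.72 (SE 0.50, edgeR adjusted p = 0.0791). It was the only member that DESeq2 and limma called, and it passed in edgeR on leaving out replicate 2 of 0.1 mM at 2 h (adjusted p = 0.0468), or of the 3 mM libraries at 24 h replicate 1 (0.0414) or 3 (0.0400). MIR_4881 had 1582 in the 1 library at 24 h that lists it and 1145, 1088 and 998 at 2 h (difference 0.55, SE 0.19, edgeR adjusted p = 0.774). MIR_36 had 33130 at 24 h and 114600, 45480 and 75280 at 2 h (difference -1.24, interval -3.01 to 0.52).

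Of the 15 comparisons, those that pool treatments had the most intervals within 1 log2 unit of 0. Over both doses and times, ammonium against water had 0 of 227 members past the threshold (0% of all 857), a median of -0.005 beside -0.002 over all identifiers, and 206 intervals within 1 log2 unit of 0. An unadjusted p under 0.05 was reached by 13 members (5.73%, beside 5.25% of all). MIR_1120 was at -0.91 (SE 0.24, edgeR adjusted p = 0.602, DESeq2 adjusted p = 0.0271), MIR_4309 at 0.59 (SE 0.19, edgeR adjusted p = 0.907) and MIR_808 at 0.92 (SE 0.35, edgeR adjusted p = 0.907). DESeq2 called MIR_1120 alone and limma called 0.

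Over all treatments, 24 h against 2 h had 0 of 227 members past the threshold, beside 0.117% of all 857 identifiers, and 211 intervals within 1 log2 unit of 0. An unadjusted p under 0.05 was reached by 8 members (3.52%, beside 5.25% of all). MIR_1120 was at -1.37 (SE 0.25, edgeR adjusted p = 0.121, DESeq2 adjusted p = 2.66e-06), MIR_1111 at -0.36 (SE 0.12, edgeR adjusted p = 0.484) and MIR_7051 at -0.56 (SE 0.20, edgeR adjusted p = 0.557). DESeq2 called MIR_1120 alone and limma called 0. MIR_1120 passed in edgeR without 3 mM at 24 h replicate 1 (adjusted p = 0.0408), and MIR_1292 passed without 3 mM at 2 h replicate 3 (adjusted p = 0.0485).

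Against the baseline, 217 members could be compared. The baseline is 1 library, of experiment 2, whose spread is taken from the other groups, so time and experiment are partly mixed. Water at 2 h had 0 members past the threshold beside 0.121% of all 825 identifiers, with 11 members at an unadjusted p under 0.05 (5.07%, beside 3.64% of all). MIR_1330 had 582, 495 and 548.5 scaled counts after water and 967 before irrigation (difference -0.84, SE 0.24, edgeR adjusted p = 0.964). MIR_3871 had 8155, 11250 and 9724 after water and 2746 before (difference 1.82, interval 0.38 to 3.26). Water at 24 h had 0 members past the threshold (0% of all 825), with 8 at an unadjusted p under 0.05 (3.69%, beside 4.12% of all). MIR_4807 had 1263 and 1353 after water, in replicates 1 and 3, and 2716 before, in replicate 2 (difference -1.05, SE 0.30). For it time and experiment cannot be told apart. MIR_60 had 24720, 19620 and 65280 after water and 8256 before (difference 2.15, interval -0.05 to 4.34). DESeq2 and limma called 0 in both comparisons.

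The interaction of ammonium with time asks whether the dose effect differs between 24 h and 2 h. For 3 mM, 0 of 228 members passed (0% of all 859) and 10 had an unadjusted p under 0.05 (4.39%, beside 4.07% of all), with 0 called by DESeq2 and limma. MIR_4969 had the smallest p. After 3 mM it had 743 and 649 scaled counts at 24 h and 1263, 897 and 1310 at 2 h, and after water 792, 1245 and 1389 at 24 h and 343 and 781 at 2 h. The interaction was -1.76 (SE 0.48, interval -2.81 to -0.70, edgeR adjusted p = 0.652). For 0.1 mM, 0 of 227 passed (0% of all 857) and 3 had an unadjusted p under 0.05 (1.32%, beside 1.75% of all). MIR_1120 was at -3.83 (SE 0.61, edgeR adjusted p = 0.142, DESeq2 adjusted p = 3.74e-08) and was the only member DESeq2 called, while limma called 0.

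The 3 independent experiments were compared with the 7 groups in the model, a test added after the values were seen. Its p-values are joint ones, for any difference among the 3 experiments. The differences and SE beside them are of experiment 1 from the mean of experiments 2 and 3, which had no test of its own. Here 35 of the 228 members (15.4%) had an adjusted p under 0.05, beside 15.8% of all 859 identifiers, so that the share of members was near that of the whole. Without adjustment, 74 members (32.5%) and 32.7% of all identifiers had a p under 0.05. Of the 35, 20 were higher in experiment 1 than in the mean of experiments 2 and 3 (8.85% of all identifiers were called in that direction) and 15 were lower (6.98%). Leaving out 1 library gave 22 to 35 members. It gave 22 without water at 2 h replicate 1 or without 3 mM at 2 h replicate 1, and 23 without replicate 3 of 0.1 mM or of 3 mM at 2 h. DESeq2 called 72 and limma 21. With zeros kept as counts, over 20258 identifiers, 0 members were called. The direction depended on the scaling. With library totals, 71 members were called, 10 higher and 61 lower in experiment 1, and the median of all identifiers was -0.271 log2 units, beside 0.025 with the factors used here. Which differences between the runs of the experiment these are is not given in the labels.

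Several abundant members were among the 35. MIR_36 had a median of 128100 scaled counts in experiment 1 (5 libraries, 104400 to 160700), 45290 in experiment 2 (33130 to 60480) and 66330 in experiment 3 (46280 to 80430). The difference of experiment 1 from the mean of the other experiments was 1.26 log2 units (SE 0.13, edgeR adjusted p of the joint test = 0.000744). The libraries of experiment 1 do not overlap the others. With all 21 libraries in limma, which adds the library with 120 counts, the difference was 2.25 and the call was lost (adjusted p = 0.177). MIR_4045 had 16600 to 31160 in experiment 1 and 5744 to 10900 in the other experiments (1.66, SE 0.17, edgeR adjusted p = 0.00086). MIR_803 had 11700 to 15840 in experiment 1 and 5746 to 9970 elsewhere (0.97, SE 0.12, edgeR adjusted p = 0.00165). MIR_10 at 1.13 (SE 0.28, edgeR adjusted p = 0.0435) and MIR_29 at 1.17 (SE 0.26, edgeR adjusted p = 0.0333) were called in the same direction.

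MIR_76 was the member with the smallest p between experiments. It had 236.5 to 488.5 scaled counts in the 4 libraries of experiment 1 that list it, 1013 to 1865 in experiment 2 and 815 to 1482 in experiment 3 (-1.78, SE 0.14, edgeR adjusted p = 0.000213). In the library before irrigation replicate 1, not used in the fit, it had 300 counts, which lies at -1.61 log2 units from its median over the 17 libraries. MIR_1174 had 1209 to 1512 in experiment 1 and 1727 to 3046 elsewhere (-0.80, SE 0.10, edgeR adjusted p = 0.0012). MIR_4164 had the largest difference of the 35, -2.81 (SE 0.37, edgeR adjusted p = 0.0068), with 33.2 to 325 in experiment 1 and 513 to 1639 elsewhere. MIR_405, MIR_4792 and MIR_4629 were higher in experiment 1 by 0.53, 0.48 and 0.54 log2 units (edgeR adjusted p = 0.0039, 0.0041 and 0.0059). With library totals these 3 were no longer called, at 0.25, 0.22 and 0.30 log2 units. With all 21 libraries in limma, MIR_405 was not called either (0.28, adjusted p = 0.555), nor was MIR_4629 (-0.88, adjusted p = 0.762), of which 1 added library has 13 counts.

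**Figure D5:**
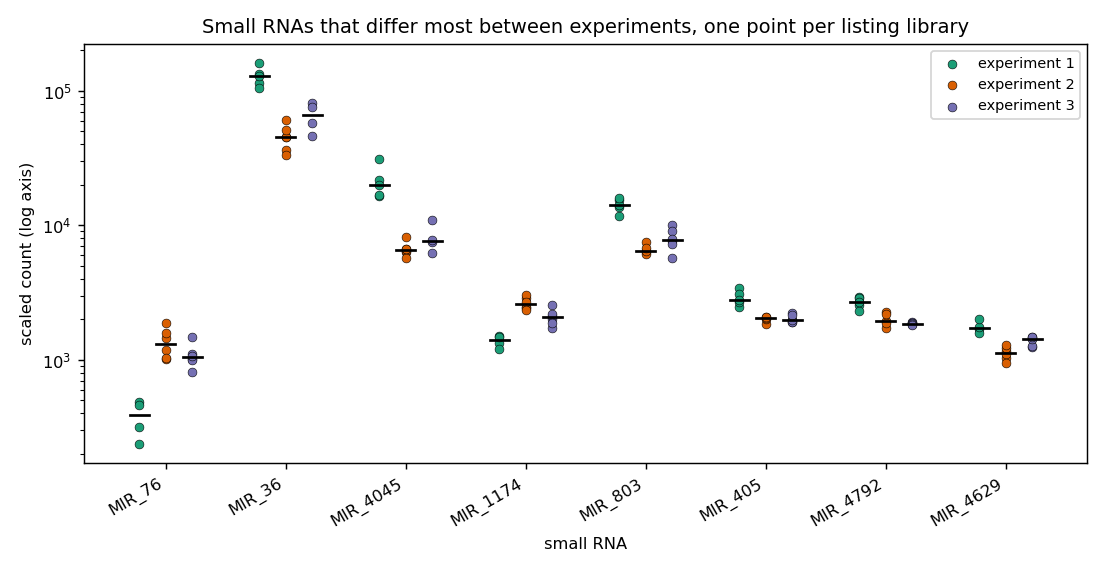
Scaled counts (log axis) of the 8 members with the smallest p between experiments, with 1 point for each library that lists them, coloured by experiment, and the median of each experiment as a black bar. The libraries of experiment 1 lie at 236.5 to 488.5 for MIR_76 and at 104400 to 160700 for MIR_36, apart from those of the other experiments.

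MIR_36 shows how group and experiment meet in these data. Its comparison of 24 h with 2 h at 0.1 mM sets 1 library of experiment 2 (33130) beside libraries of experiments 1, 2 and 3 (114600, 45480 and 75280). Within experiment 2 the values were 33130 at 24 h and 45480 at 2 h. With zeros kept as counts instead of missing values, the fit called it at -2.24 log2 units (edgeR adjusted p = 0.0158), where its 0 in 0.1 mM at 24 h replicate 3 entered as a count.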

How the data were processed

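The deposited file gives unnormalised read counts, as whole numbers, of 32711 identifiers in 21 libraries. The submitters' processing notes name bcl2fastq and edgeR. What aligned the reads, what called the small RNAs, the build and any filtering are not given in the sources used. Per the labels' protocols, RNA of 18 to 30 bp was cut from polyacrylamide gels and sequenced as single-end reads of 50 bp. Counting error is small at these counts, and p-values measure the spread between pooled samples of separate experiments.

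The members, the groups compared and the tests were chosen with earlier results of these data known. Groups were taken from the labels. For 2 libraries the column name matched the title while the last digit of the description, in the place of the dose, differed, and the title was followed. Counts were divided by TMM factors from the 416 identifiers listed by all 17 libraries. Each identifier listed by at least 15 libraries was tested with edgeR 4.0.16 (R 4.3.3, glmQLFit and glmQLFTest) on the libraries that list it, fitted together with all identifiers listed by those libraries, all groups in 1 fit and no block. P-values were adjusted by Benjamini-Hochberg within each comparison. The procedure was run on simulated counts with known changes between the times or between the experiments. The simulation gave all identifiers the same spread. No effect of ammonium was simulated, so it is no check of those comparisons. Alternatives were RLE factors, library totals, DESeq2 1.42.0, limma 3.58.1 with zeros missing, zeros kept as counts, only identifiers with a median of at least 500, the replicate block, only the groups compared, all 21 libraries and each library left out.

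Named members were the 10 most abundant, the 5 with the largest and the 5 with the smallest spread, the member with the smallest p of each comparison, the neighbours of the limit of 500 and the 3 most abundant members without a baseline value. Any other member was named with its values known. Per the labels the experiment was run 3 independent times, so equal replicate numbers share a run. The mean correlation of the members' deviations from group means was 0.241 within a run (35 pairs of libraries) and -0.113 across runs (71 pairs).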

Additional observations from a re-analysis of the deposited data

Results flagged for a closer look

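Among 94 sets of libraries of the same time after irrigation, taken over 47 named members, 9 held a library that stood far from all others by the gap at the end of the range. Chance gives about 1 in 20 such sets, but members were partly named for a wide spread or a large difference, so the number is not to be read against that rate. Treatments are mixed within a time. MIR_110 stood at 6152 scaled counts in water at 2 h replicate 3, with 23530 to 60250 in the others at 2 h, and at 7225 in 0.1 mM at 24 h replicate 2, with 34310 to 60460 in the others at 24 h. MIR_1120 stood at 170.1 in 0.1 mM at 24 h replicate 2, with 1155 to 2601 in the others. MIR_4164 stood at 33.2 in water at 24 h replicate 1, with 325 to 1260 in the others. MIR_1248 stood at 429 in water at 2 h replicate 1, with 794 to 1293 in the others. MIR_76 stood at 315 in 3 mM at 24 h replicate 1, with 815 to 1072 in the others, which were of experiments 2 and 3. MIR_4991 stood at 496.5 in 3 mM at 24 h replicate 3, with 616 to 696 in the others. Values above the rest were MIR_3819 at 1020 in water at 2 h replicate 2, with 808 to 887 in the others, and MIR_1292 at 1142 in 3 mM at 2 h replicate 1, with 541 to 620 in the others.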

How the results depend on the processing

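RLE factors, the restriction to a median of at least 500 and the fit on only the groups compared changed no count of members called by over 1.5 times. With the replicate block, 1 member, MIR_1120, was called in 0.1 mM against water at 24 h, in 24 h against 2 h at 0.1 mM and over all treatments, and in the 0.1 mM by time interaction, and the block changed no other call. Library totals called 1 member in the same comparisons and between the doses at 24 h, and 71 between experiments. DESeq2 called 1 member between the doses at 2 h, in ammonium against water, in both 24 h against 2 h comparisons just named and in that interaction, 2 in 0.1 mM against water at 24 h, 3 between the doses at 24 h, and 72 between experiments. Limma called 1 in 0.1 mM against water at 24 h and in 24 h against 2 h at 0.1 mM, and 21 between experiments, and with all 21 libraries 1 in these comparisons and in that interaction. With zeros kept as counts, 1 member (MIR_53) was called in 0.1 mM against water at 24 h, between the doses at 24 h, in ammonium against water, in 24 h against 2 h over all treatments and in that interaction, 2 (MIR_53 and MIR_36) in 24 h against 2 h at 0.1 mM, 2 (MIR_65 and MIR_374) in water against the baseline at each time, and 0 between experiments. Leaving out 1 library gave 0 to 1 members in 0.1 mM against water at 24 h, between the doses at 24 h and in 24 h against 2 h at 3 mM, at 0.1 mM and over all treatments, 22 to 35 between experiments, and 0 elsewhere. Scaled by library totals, members in the left-out libraries lay at a median of 1.06 (0.1 mM at 24 h), 2.88 (3 mM at 24 h) and 0.99 (before irrigation replicate 3) log2 units from their level. Directions that turned were MIR_65 between the doses at 24 h (-1.97 with all 21 libraries, where a library with 53 counts entered), MIR_4629 between experiments (-0.88 with all 21 libraries, where a library with 13 counts entered, and -0.006 with zeros kept) and, with zeros kept as counts, MIR_4881 in 24 h against 2 h at 0.1 mM (-0.47), and MIR_1111 (0.026) and MIR_1292 (0.046) in 24 h against 2 h over all treatments. Other causes were not tested. Whether depth bears on the missing values was not tested.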
